A study of Mus musculus with 6 samples.

Results

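The 10 genes described here carry iron into the cell, store it, let it out, and adjust these steps to supply. They are the transferrin receptor Tfrc, the metal transporters Slc11a2 and Slc39a14, the exporter Slc40a1, the ferritin subunits Fth1 and Ftl1, the iron regulatory proteins Aco1 and Ireb2, the ligase subunit Fbxl5, and Hfe. They were chosen by symbol from a table of 19617 rows, all 10 were found, and 9 of them had the mean of at least 1 TPM that a test required. TPM is a relative abundance that corrects for the length of the transcript and sums to the same total in every library.

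RNA had been sequenced from Lewis lung carcinoma cells, a mouse lung tumour line, after 4 days in 2 ug/mL doxycycline. A short hairpin RNA (shRNA) against Urod, switched on by the drug, was present in 3 libraries labelled as Urod knockdown. The other 3, labelled as Urod wildtype, came from cells with a scrambled hairpin in a lentivirus. Urod encodes uroporphyrinogen decarboxylase, an enzyme of heme synthesis. Both groups had doxycycline, and the labels give neither the number of hairpin sequences, nor whether the cells were clones, nor whether replicates were separate cultures. The p-values then set the difference between groups against only the scatter of these libraries, which may be technical. Effects of lower Urod and of anything else that differed between the populations cannot be told apart.

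Cells take up iron mainly as transferrin bound to its receptor, and iron leaves the endosome through Slc11a2 (DMT1). Ferritin, a shell of heavy and light subunits, stores the iron that is not used, and heme synthesis consumes iron at its last step. The iron regulatory proteins IRP1, the product of Aco1, and IRP2, the product of Ireb2, bind hairpins called iron-responsive elements when iron is scarce. An element in the 5′ untranslated region (UTR) of an mRNA then holds back its translation, while elements in the 3′ UTR of Tfrc protect that mRNA from decay. FBXL5, which binds iron itself, marks IRP2 for degradation when iron is plentiful.

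The elements are shown because they tell apart the members whose mRNA level and those whose translation the regulatory proteins are known to control. The search was for C, any 5 bases, the loop CAGTGN and any 5 bases, on the transcript strand only. The 5 bases on either side of the loop had to pair (A with T, G with C or T) with at most 1 unpaired position. It covered the protein-coding transcripts of GENCODE M21 on GRCm38. A stretch of 27 bases is given for each match in the members, 5′ to 3′ in DNA letters, with the loop in capitals.
Fth1, 5′ UTR, chr19:9982733-9982759, plus strand: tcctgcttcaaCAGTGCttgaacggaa
Ftl1, 5′ UTR, chr7:45459780-45459806, minus strand: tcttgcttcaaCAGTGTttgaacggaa
Slc40a1, 5′ UTR, chr1:45925466-45925492, minus strand: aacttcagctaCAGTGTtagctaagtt
Slc11a2, 3′ UTR, chr15:100395154-100395180, minus strand: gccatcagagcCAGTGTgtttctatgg
Tfrc, 3′ UTR, chr16:32631220-32631246, plus strand: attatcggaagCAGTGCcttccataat
Tfrc, 3′ UTR, chr16:32631599-32631625, plus strand: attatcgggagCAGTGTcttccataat
Tfrc, 3′ UTR, chr16:32631664-32631690, plus strand: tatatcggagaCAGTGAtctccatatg
Tfrc, 3′ UTR, chr16:32631711-32631737, plus strand: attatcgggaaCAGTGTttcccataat

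Tfrc held 4 matches, all in its 3′ UTR, and Fth1, Ftl1, Slc40a1 and Slc11a2 held 1 each. The other 5 members, Aco1, Ireb2, Fbxl5, Hfe and Slc39a14, held 0. Among all protein-coding genes with the region annotated, 0.986% had a match in a 5′ UTR and 4.03% in a 3′ UTR. The matches of Tfrc lay in 1 of its 3 coding transcripts, and the match in Slc11a2, the only one with an unpaired position, in 1 of 6. The table gives 1 value per gene, so the Slc11a2 transcripts with and without the element were not told apart.

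The check of the hairpin came first. Urod had 5.71, 5.21 and 5.35 TPM in Urod shRNA libraries, against 95.2, 89.9 and 92.1 TPM in the scrambled libraries. That is 5.87% of the scrambled mean. Differences between the groups were widespread: 74.7% of the 11980 genes tested passed (limma on log2(TPM + 1), adjusted p under 0.05), with 38.5% higher and 36.2% lower in Urod shRNA cells. The median size of a change over all tested genes was 0.32 on the log2 scale. Of 5 epithelial markers, Krt8 rose (459 TPM in Urod shRNA and 315 TPM in scrambled libraries) and Epcam fell (0.943 and 1.96 TPM in the same order), while Krt18, Krt19 and Cdh1 averaged under 1 TPM in both groups. Of 5 mesenchymal markers, the 3 tested all fell, Vim, Sparc and Acta2. Fn1 (0.037 and 0.031 TPM in the same order) and Cdh2 (0.070 and 0.0081 TPM) averaged under 1 TPM in both groups. Cdh2 was higher in Urod shRNA libraries without overlap. The summed level of the list was 4725 to 4825 TPM in Urod shRNA and 9550 to 9622 TPM in scrambled libraries. Most of it came from Vim (3861 and 7812 TPM). Endothelial markers summed to 9.63 to 10.8 TPM in Urod shRNA and 6.33 to 6.88 TPM in scrambled libraries (Pecam1 rose, Vwf fell), and erythroid markers to 2.88 to 3.27 TPM and 2.12 to 3.19 TPM (Epor fell). The part of these shifts in the results on iron genes was not tested.

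Of the 9 tested members, 4 rose, 4 fell and 1 did not pass. These 8 calls stand beside a background in which 74.7% of all genes were called, so the count itself does not set the iron genes apart. Under quantile normalization, where Fth1 turns upward, the split was 5 up and 3 down. Hfe and Fbxl5 fell most, Slc39a14 rose most, and the ferritin subunits, Tfrc and both iron regulatory protein genes changed by less than 1.5-fold. For 8 of the 9 tested members no value of one group lay within the other, as for 77.3% of all tested genes. A change of at least 1 on the log2 scale that passed was seen in 7.53% of tested genes and, of the members, in Hfe (-1.13), with Fbxl5 just short of it (-0.99). Fbxl5 reached it without Urod shRNA replicate 1 (-1.01), without scrambled replicate 3 (-1.01), and under median-ratio scaling (-1.004) and quantile normalization (-1.04). Hfe fell short of it with a pseudocount of 10 (-0.61).

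**Figure D1:**
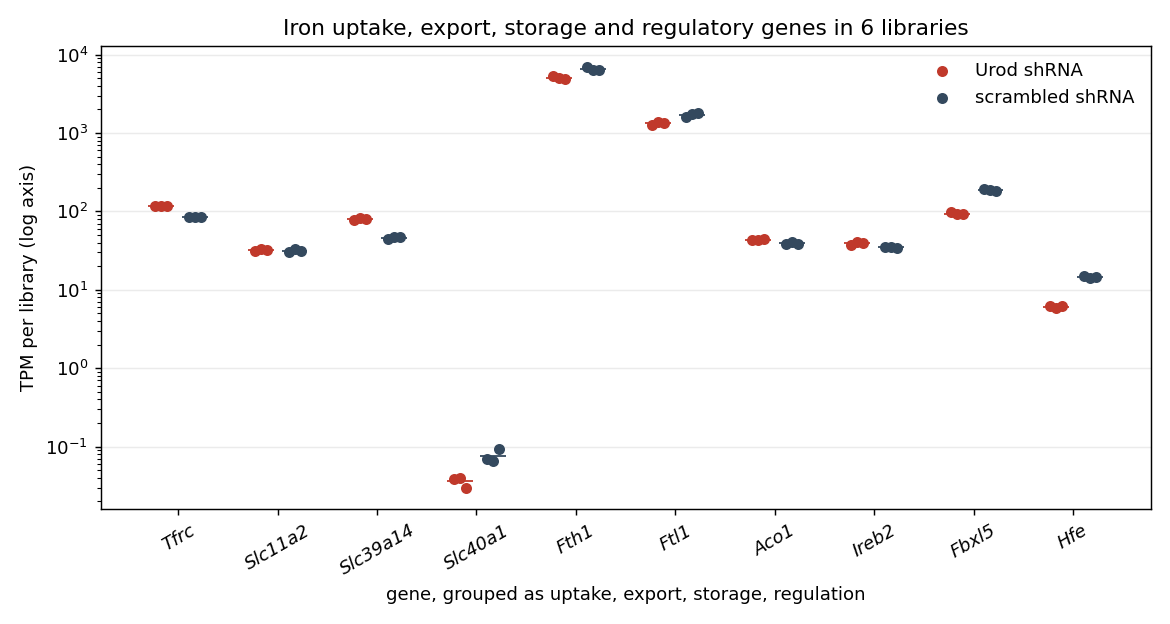
TPM of each of the 10 iron genes in each library, on a log axis. Points are libraries (Urod shRNA on the left, scrambled on the right of each gene) and short lines are group means. Fth1 lies highest (means 5077 and 6607 TPM) and Slc40a1 lowest, under 0.1 TPM. Of the 10 genes, only Slc11a2 has overlapping groups.

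The order of the levels was nearly the same in both groups. In Urod shRNA libraries it ran Fth1, Ftl1, Tfrc, Fbxl5, Slc39a14, Aco1, Ireb2, Slc11a2, Hfe and Slc40a1. In scrambled libraries Fbxl5 stood above Tfrc, and the rest kept their places. Within each group, no neighbours in this order had overlapping values. By mean TPM over all 19590 named genes, Fth1 ranked 4 in Urod shRNA libraries and 5 in scrambled libraries.

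Among the genes of uptake, Tfrc brings transferrin-bound iron into the cell. Its level was 117, 116 and 117 TPM with the Urod shRNA, against 84.3, 83.7 and 83.8 TPM with the scrambled hairpin. All 3 Urod shRNA values lay above all 3 scrambled values, and the SD within each group was under 1 TPM. The mean was 1.39-fold higher, and the log2 change was 0.47 (SE 0.03, limma, adjusted p = 2.61e-06). Of all tested genes, 17.1% rose by more. Tfrc, whose 4 matches to the searched pattern are printed above, lies on chromosome 16 from 32608920 to 32632794 of GRCm38.

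Slc39a14 encodes ZIP14, a surface transporter that takes up iron not bound to transferrin, and also zinc and manganese. It stood at 76.9, 81.9 and 79.0 TPM in Urod shRNA libraries, against 45.1, 46.6 and 46.8 TPM in scrambled libraries. The groups were far apart, and the mean was 1.72-fold higher in Urod shRNA cells. The log2 change was 0.77 (SE 0.04, limma, adjusted p = 1.09e-06), and 6.12% of tested genes rose by more. The gene lies on chromosome 14 from 70303469 to 70351425.

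Slc11a2 moves iron out of the endosome, the step after the receptor. It stood at 31.3, 33.1 and 32.3 TPM in Urod shRNA libraries, against 30.4, 32.7 and 31.4 TPM in scrambled libraries. The groups overlapped, and this member did not pass (log2 change 0.03, 95% interval -0.07 to 0.13; limma, adjusted p = 0.527). The interval leaves room for small changes in either direction.

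Slc40a1 encodes ferroportin, the known exporter of iron from mammalian cells. It was barely detected: 0.0384, 0.0402 and 0.0299 TPM in Urod shRNA libraries, against 0.0702, 0.0664 and 0.0938 TPM in scrambled libraries. The values did not overlap, but with a mean under 1 TPM the gene was not tested with the others. In the authors' deposited table it averages 0.127 CPM (counts scaled to the library total), with a log2 fold change of -1.04 and an FDR of 0.133. With no filter on low values it passed narrowly in limma (log2(TPM + 1) change -0.06, adjusted p = 0.043), so its call depends on the test used.

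Ferritin is the store. Fth1, the heavy subunit with the ferroxidase activity, had 5336, 4972 and 4924 TPM in Urod shRNA libraries, against 6955, 6424 and 6443 TPM in scrambled libraries. All Urod shRNA values were lower than all scrambled ones. The mean was 76.8% of the scrambled level, and the log2 change was -0.38 (SE 0.05, limma, adjusted p = 0.000236). Under quantile normalization, which forces the same set of values on every library, the change of Fth1 turned to 0.15. The trimmed-mean and median-ratio scalings gave -0.39 for each. Fth1 lies on chromosome 19 from 9980598 to 9985098.

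Ftl1, the light subunit, stood at 1269, 1397 and 1339 TPM in Urod shRNA libraries, against 1580, 1766 and 1806 TPM in scrambled libraries. The groups again did not overlap. The mean was 77.7% of the scrambled level, close to the share for Fth1, and the log2 change was -0.36 (SE 0.06, limma, adjusted p = 0.000808). Under quantile normalization it was -0.22 (limma, adjusted p = 0.0351; the range over the alternatives was 1.79e-05 to 0.0351). Reads of 51 bases cannot always be placed in this gene. Of the 918 stretches of that length in its longest coding transcript, 830 (90.4%) also occur in annotated transcripts of other genes, with 671 of them in Ftl1-ps1. For Fth1 the share was 3.95%. Alignments of low mapping quality were discarded, so the level of Ftl1 is uncertain. It also shares 355 exonic bases with Gm10252 on the opposite strand. Ftl1 lies on chromosome 7 from 45457944 to 45459884.

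Together the ferritin subunits made up 0.661%, 0.637% and 0.626% of all TPM in Urod shRNA libraries, against 0.854%, 0.819% and 0.825% in scrambled libraries. The groups did not overlap, with means of 0.641% ± 0.0175 and 0.833% ± 0.0185 (SD, n = 3 each). The two-sided exact permutation test gave p = 0.1, the smallest that 3 libraries against 3 allow. The ratio of Fth1 to Ftl1 within a library was 4.21, 3.56 and 3.68 in Urod shRNA cells and 4.40, 3.64 and 3.57 in scrambled cells. This ratio does not depend on scaling between libraries, and its groups overlapped (exact permutation test, p = 0.8, adjusted p = 0.9 over the 5 ratios computed). Replicate 1 had the highest ratio in both groups: there Fth1 stood 5.10% above its Urod shRNA mean and 5.26% above its scrambled mean, and Ftl1 lay under its group mean in both.

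The mRNAs of the iron regulatory proteins moved together by small amounts. Aco1 encodes IRP1, which acts as a cytosolic aconitase while it holds an iron-sulfur cluster and binds RNA without it. It stood at 43.0, 43.7 and 44.1 TPM in Urod shRNA libraries, against 38.9, 40.4 and 37.9 TPM in scrambled libraries. The log2 change was 0.16 (SE 0.04, limma, adjusted p = 0.00542). Ireb2, which encodes IRP2, stood at 37.5, 41.2 and 39.2 TPM in Urod shRNA libraries, against 34.7, 35.5 and 34.2 TPM in scrambled libraries. Its log2 change was 0.17 (SE 0.04, limma, adjusted p = 0.00797). Neither gene had overlapping groups, and both changes were smaller than the median size over all tested genes.

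The ratio of Ireb2 to Aco1 averaged 0.900 ± 0.0359 in Urod shRNA libraries and 0.892 ± 0.0123 in scrambled libraries (SD, n = 3 each). These values overlapped (exact permutation test, p = 0.9, adjusted p = 0.9). Aco1 lies on chromosome 4 from 40143081 to 40198338, and Ireb2 on chromosome 9 from 54863789 to 54912530.

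Fbxl5, the iron-binding substrate receptor of the SCF ubiquitin ligase that removes IRP2, had a much larger change. It stood at 97.1, 92.2 and 93.0 TPM in Urod shRNA libraries, against 193, 188 and 183 TPM in scrambled libraries. The highest Urod shRNA value was well under the lowest scrambled value, and the mean was 50.1% of the scrambled level. The log2 change was -0.99 (SE 0.03, limma, adjusted p = 2.96e-07), and 4.91% of tested genes fell further. Fbxl5 lies on chromosome 5 from 43744615 to 43821638. Its exons share 98 bases with Bst1 on the opposite strand, which had 0.371, 0.155 and 0.260 TPM in Urod shRNA libraries and 2.95, 2.71 and 2.24 TPM in scrambled libraries. The libraries were strand-specific, and whether counting used the strand was not stated.

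Hfe encodes a membrane protein related to MHC class I molecules that binds the transferrin receptor, and mutations in it cause hereditary iron overload. It stood at 6.13, 5.94 and 6.31 TPM in Urod shRNA libraries, against 14.9, 14.2 and 14.7 TPM in scrambled libraries. The groups were far apart, and the mean was 42.0% of the scrambled level. The log2 change was -1.13 (SE 0.05, limma, adjusted p = 7.65e-07), and 3.47% of tested genes fell further. Hfe lies on chromosome 13 from 23702034 to 23710854.

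Hfe and Slc40a1 are also expressed in macrophages. Of 11 leukocyte markers, 9 were in the table and 3 had a mean of at least 1 TPM. Their summed level was 54.7 to 58.4 TPM in Urod shRNA libraries and 111 to 113 TPM in scrambled libraries. Cd68 (30.8 and 53.2 TPM) and Lyz2 (11.4 and 49.2 TPM) fell, and Cd14 (12.9 and 8.37 TPM) rose. The defining markers Ptprc (0.0410 and 0.0590 TPM), Emr1 and Csf1r averaged under 1 TPM in both groups. Values in brackets are the Urod shRNA mean and then the scrambled mean. The part of such cells in the fall of Hfe was not tested. In bulk RNA, fewer cells of a type and less RNA per cell cannot be told apart.

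**Figure D2:**
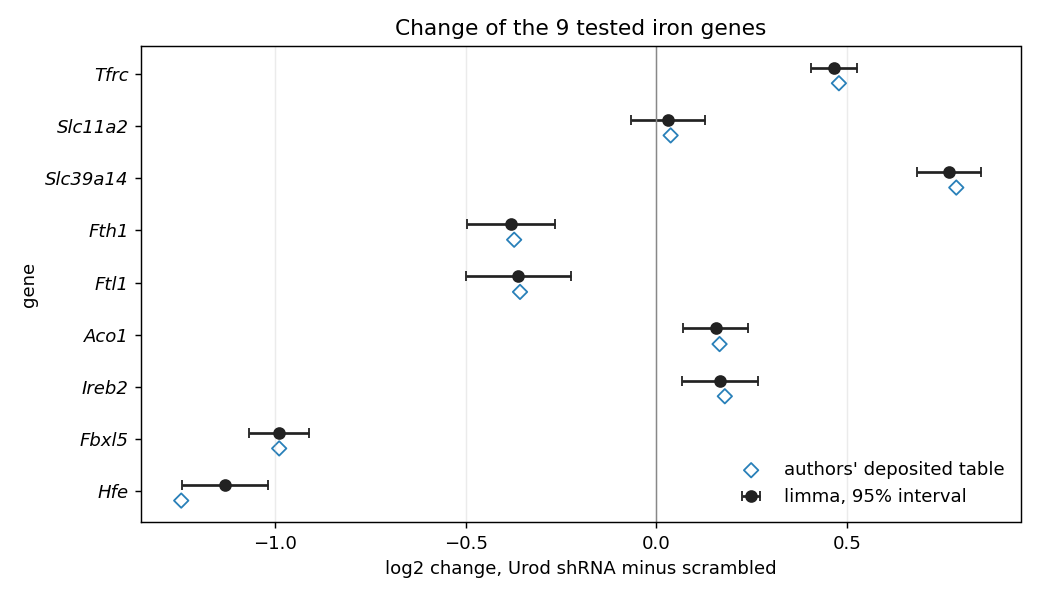
Log2 change of the 9 tested iron genes, Urod shRNA minus scrambled. Filled points are limma estimates on log2(TPM + 1) with 95% intervals, and open diamonds are the authors' deposited log2 fold changes. Slc39a14 and Tfrc lie furthest to the right, Hfe and Fbxl5 furthest to the left, and only the interval of Slc11a2 crosses 0.

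The authors' deposited table gave the same directions for all 10 members. In the authors' deposited table the log2 fold changes run from -1.25 for Hfe to 0.79 for Slc39a14. FDR there was under 0.05 for 8 members, with Slc11a2 (0.517) and Slc40a1 (0.133) above it, where 56.1% of all its rows are under 0.05. Both sets of values come from the same 6 libraries.

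**Figure D3:**
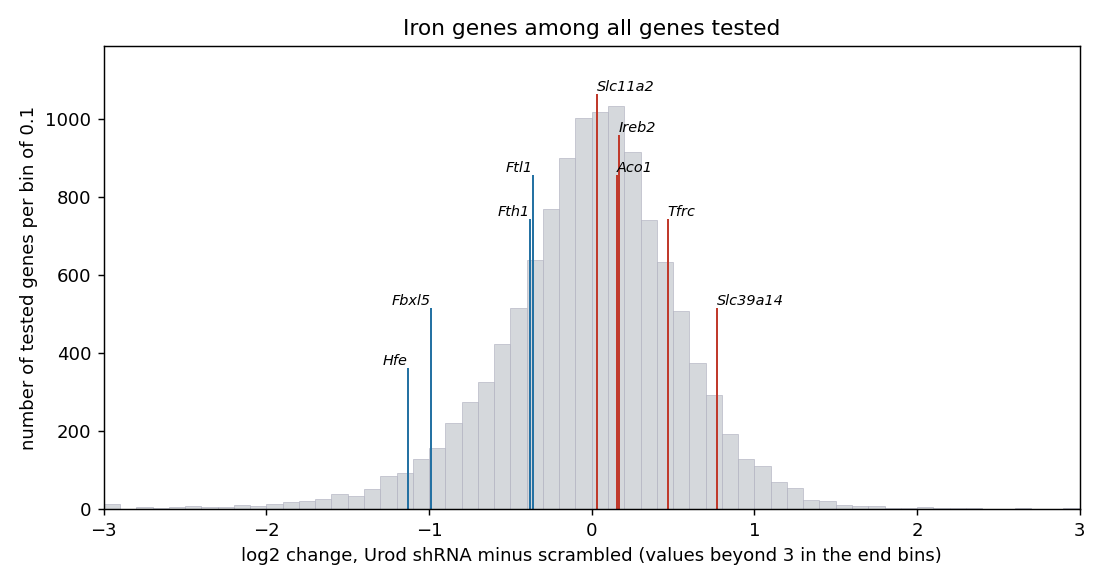
Number of tested genes per bin of log2 change, Urod shRNA minus scrambled, with the 9 tested iron genes marked by vertical lines (heights are arbitrary). Hfe and Fbxl5 lie in the lower tail and Slc39a14 in the upper one. Aco1, Ireb2 and Slc11a2 lie inside the main body.

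Ratios inside a library set members with linked roles against each other. The ratio of Tfrc to Fth1, uptake against storage, was 0.0219, 0.0233 and 0.0238 in Urod shRNA libraries, against 0.0121, 0.0130 and 0.0130 in scrambled libraries. It was 1.80-fold higher in Urod shRNA cells, with no overlap. Slc39a14 over Slc11a2, the transporters of surface and endosome, was 2.46, 2.48 and 2.45 in Urod shRNA libraries and 1.48, 1.42 and 1.49 in scrambled libraries.

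Fbxl5 over Ireb2, the ligase subunit against its substrate, was 2.59, 2.24 and 2.37 in Urod shRNA libraries and 5.54, 5.28 and 5.35 in scrambled libraries. The log2 difference was -1.17. Each of these 3 ratios separated the groups completely and reached p = 0.1 in the two-sided exact permutation test (adjusted p = 0.167 over 5 ratios), the smallest p this design allows. These are ratios of transcripts and say nothing of protein amounts.

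**Figure D4:**
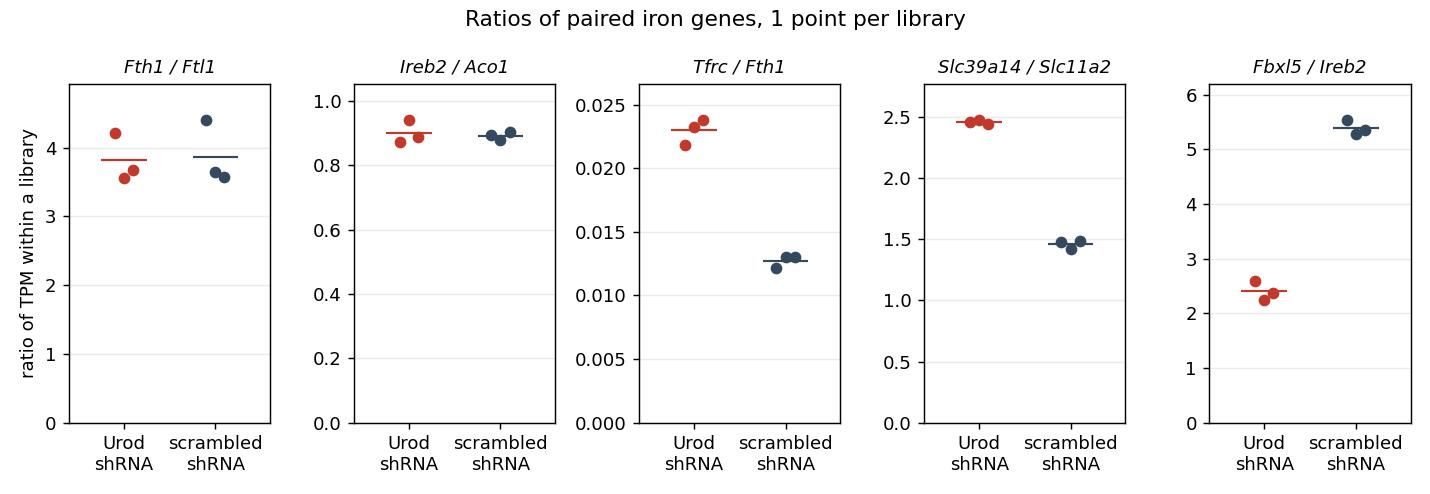
Ratio of the TPM of paired iron genes within each library, with Urod shRNA on the left and scrambled on the right, and lines at the group means. The axes start at 0. The groups overlap for Fth1 over Ftl1 and Ireb2 over Aco1. They are apart for the other 3 ratios, with Tfrc over Fth1 and Slc39a14 over Slc11a2 higher and Fbxl5 over Ireb2 lower in Urod shRNA libraries.

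Other genes of iron handling were described by role, with the members left out. Of 64 symbols given, some of them older names of the same gene, 58 were in the table and 46 were tested. Of these 12 rose, 24 fell and 10 did not pass, beside 38.5% higher and 36.2% lower over all tested genes. The median log2 change was -0.11, against 0.02 over all tested genes. The lists were chosen with earlier results of these data known, and no list was tested as a set.

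Of the 9 remaining uptake genes tested, 6 fell and 1 rose (median log2 change -0.18), beside 36.2% lower over all tested genes. Scara5, a receptor for ferritin in mouse, stood at 5.82 ± 0.207 TPM in Urod shRNA and 15.8 ± 0.339 TPM in scrambled libraries (SD, n = 3 each; log2 change -1.30; limma, adjusted p = 4.5e-07). Mfi2, the iron-binding melanotransferrin, fell by 1.53 on the log2 scale, and Lcn2, a lipocalin that binds iron-loaded siderophores, fell by 0.75. The metalloreductase Steap2 fell by 0.25.

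Of the 9 tested genes listed for handling iron inside the cell, 6 rose and 2 fell (median 0.20), beside 38.5% higher over all tested genes. Abcb8, a mitochondrial transporter, rose by 0.63 and Pcbp1, a chaperone that delivers iron to ferritin, by 0.28. Both mitoferrins, which carry iron into mitochondria, went the other way: Slc25a28 stood at 46.9 ± 2.65 TPM in Urod shRNA and 71.6 ± 1.52 TPM in scrambled libraries (SD, n = 3 each; log2 change -0.60; limma, adjusted p = 1.21e-05), and Slc25a37 fell by 0.30. Ncoa4, the receptor that takes ferritin to the lysosome, was chosen after its values were seen. It rose by 0.28 at a low level (5.05 ± 0.327 TPM in Urod shRNA and 4.00 ± 0.392 TPM in scrambled libraries).

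In the list of export and the hepcidin axis, 8 of 12 fell and 1 rose (median -0.27), beside 36.2% lower over all tested genes. Hfe2, which encodes the hepcidin regulator hemojuvelin, stood at 0.841 ± 0.0997 TPM in Urod shRNA and 5.25 ± 0.297 TPM in scrambled libraries (SD, n = 3 each; log2 change -1.77; limma, adjusted p = 7.77e-07). Neo1, a receptor that binds hemojuvelin, rose by 0.73, while Hephl1, a ferroxidase of the ceruloplasmin family, fell by 0.90. Hephl1 was low, with means of 1.06 TPM in Urod shRNA and 2.83 TPM in scrambled libraries. Id1, a target of BMP signalling, fell by 0.53. B2m, the partner of HFE at the membrane and chosen after its values were seen, fell by 0.48. The hepcidin gene Hamp was listed at 0 in all 3 Urod shRNA libraries and in 2 of the 3 scrambled libraries, with 0.151 TPM in the remaining one.

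**Figure D5:**
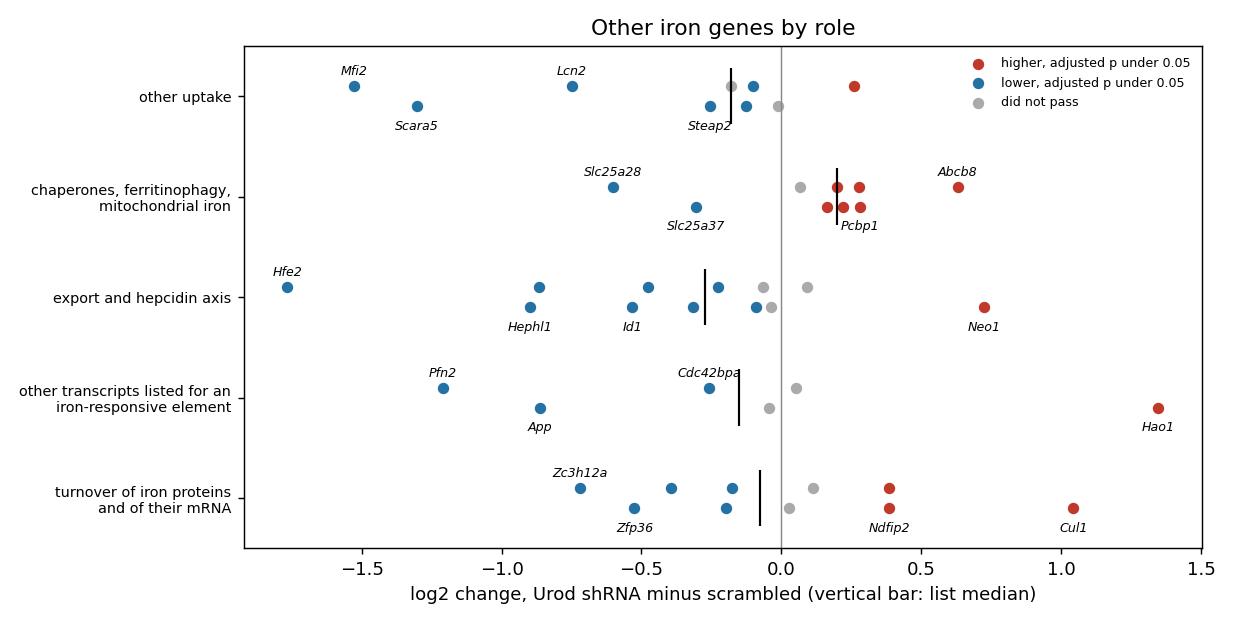
Log2 change (Urod shRNA minus scrambled) of each tested gene in 5 lists of other iron genes, coloured by whether it passed at an adjusted p under 0.05. Black bars are list medians, from -0.27 for export and the hepcidin axis to 0.20 for chaperones, ferritinophagy and mitochondrial iron. Labels name up to 4 genes per list with the smallest adjusted p.

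Partners that act on the members' proteins or mRNA moved both ways, with 3 of 10 up and 5 down (median -0.08). Over all tested genes 38.5% were higher and 36.2% lower, and 74.7% were called in either direction. Cul1, the scaffold of the ligase in which FBXL5 works, stood at 91.3 ± 0.388 TPM in Urod shRNA and 43.8 ± 0.406 TPM in scrambled libraries (SD, n = 3 each; log2 change 1.04; limma, adjusted p = 1.2e-07). It rose where Fbxl5 fell. Zc3h12a, an RNase that degrades Tfrc mRNA, fell by 0.72 and the mRNA decay factor Zfp36 by 0.53. Ndfip2, an adaptor of ubiquitin ligases that act on Slc11a2 protein, rose by 0.38 (71.1 TPM in Urod shRNA and 54.2 TPM in scrambled libraries). Ndfip1, in the same list and chosen after its values were seen, fell by 0.20 from a higher level (320 and 366 TPM in the same order).

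Of 6 tested transcripts listed for an iron-responsive element outside the members, 1 rose and 3 fell (median -0.15). The shares over all tested genes were 38.5% higher and 36.2% lower, with 74.7% called in either direction. Hao1 rose by 1.35, Pfn2 fell by 1.21, App fell by 0.86 and Cdc42bpa fell by 0.26. In the search for elements described above, Hao1 held 1 match, and Pfn2, App and Cdc42bpa, the 3 that fell, held 0. App was low, with means of 0.73 TPM in Urod shRNA and 2.15 TPM in scrambled libraries.

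Genes with the profile nearest to a member over the 6 libraries were found by the Euclidean distance between centred log2(TPM + 1) values. Nearest to Tfrc were Cbfb (distance 0.0232), Mrpl16 (0.0285) and Ahsa1 (0.0327). Nearest to Fth1 were Wdsub1 (0.0297), Ube2c (0.0313) and Trim59 (0.0337), and nearest to Fbxl5 were Ckmt1 (0.0380), Clk1 (0.0533) and Nusap1 (0.0562). Ckmt1 is a low gene, with means of 0.396 TPM in Urod shRNA and 1.78 TPM in scrambled libraries. With 2 groups and a difference shared by most genes, such likeness rests mainly on a log2 change of the same size.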

How the data were processed

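RNA from 6 libraries (3 Urod shRNA, 3 scrambled, grouped by title) was poly-A selected and made into strand-specific libraries read singly over 51 bases, per the labels' protocols. TopHat placed the reads on mm10, alignments with mapping quality under 10 were dropped, and Cufflinks with Cuffdiff 2.1.1 gave abundances, per the labels' protocols and the submitters' processing notes. The deposited per-sample values were read as TPM made by the authors, since each column sums to 1000000. TPM keep no counts, so read depth is unknown and no counting interval is given. The authors' deposited table lists, per the file headers, a log2 fold change and mean log2 CPM for each gene, the score of a likelihood ratio, the p-value and the FDR; Urod is negative in it, so its fold changes are Urod shRNA over scrambled.

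Rows carrying a date in place of a name (27) were left out. The 11980 genes whose mean reached 1 TPM were fitted as log2(TPM + 1), which understates changes of low genes, with limma 3.58.1 in R 4.3.3 (trended empirical Bayes, two-sided tests, Benjamini-Hochberg adjustment over all genes, threshold 0.05). The fit was also run on simulated data in which far fewer genes changed than were called here, so that run does not check these calls. Ratios and shares had exact permutation tests (scipy 1.17.1). The members, lists and tests were chosen with earlier results of these data known. The text names every member, Urod, up to 4 genes per list with the smallest adjusted p, and the 3 nearest profiles of 3 members. It also names the tested markers and a few genes chosen after their values were seen. The latter were Ncoa4, B2m, Ndfip1, Hamp, Alas2, Cdc14a, Epas1 and the markers that were too low to test. Coordinates and sequences come from GENCODE M21 (GRCm38, called mm10 by the authors). A further deposited gene list held none of the members and was not used. Figures were drawn with matplotlib 3.10.9. The alternatives changed the pseudocount, filter, scaling or variance model, added the replicate number as a block, or left out 1 library. The values of 1 listed gene, included in the counts, are not reported here.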

Additional observations from a re-analysis of the deposited data

How the results depend on the processing

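Across 16 alternative settings, 8 or 9 iron genes were called, the 9th being Slc40a1 with no filter on low values. The direction of Fth1 reversed under quantile normalization (log2 change 0.15, against -0.38); the cause was not tested. Every other tested iron gene kept its direction and its side of the threshold in all 16. Leaving out each library in turn gave 8 called iron genes each time and 8263 to 8962 called genes in all, while the remaining settings gave 6897 (only genes with a mean of 10 TPM or more) to 10286 (no filter). Under leave-one-out the log2 ratio difference of Fth1 to Ftl1 ranged from -0.09 to 0.08 and that of Ireb2 to Aco1 from -0.02 to 0.04, so neither has a settled sign. Deviations of same-numbered libraries from their group means correlated at 0.418, 0.214 and 0.095, and scrambled replicate 3 correlated better with Urod shRNA replicate 2 (0.203), so the numbers were not taken as pairs. With the replicate number as a block 9882 genes were called, 8 iron genes among them. Calls rose to 10 in the list of export and the hepcidin axis (9 without the block). They rose to 5 in that of other transcripts listed for an iron-responsive element (4) and to 9 in that of turnover (8). Over all 16 settings the calls ranged from 6 to 10 for other uptake and 7 to 8 for chaperones and mitochondrial iron. The range was 6 to 11 for export and the hepcidin axis and 7 to 9 for turnover. For other transcripts listed for an iron-responsive element it was 3 to 5. A pseudocount of 10 moved the log2 change of low genes by over 1.5 times. For example, it became -0.36 for Mfi2, -0.49 for Hfe2, -0.21 for Hephl1, -0.18 for App and 0.74 for Hao1. No scaling moved the median of all genes by over 0.1 on the log2 scale. The low level of Slc40a1 and the shared sequence of Ftl1 limit what can be said of either.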

Other observations

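The search for iron-responsive elements was also run on listed transcripts that are not members. A match lay in the 5′ UTR of Alas2, and in the 3′ UTR of Cdc14a and of Hao1. Epas1, Cdc42bpa, Pfn2 and App had 0 matches. This says only that no stretch of their annotated coding transcripts met both the letters and the pairing rule of the search. A loop without the required pairing was not counted. Cdc14a did not pass (log2 change -0.04; limma, adjusted p = 0.515), and Alas2 had means of 0.0616 and 0.0462 TPM in Urod shRNA and scrambled libraries, too low to test.

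Hao1, which encodes a glycolate oxidase best known from liver, stood at 17.6, 15.1 and 17.2 TPM in Urod shRNA libraries, against 6.70, 5.17 and 5.97 TPM in scrambled libraries, with no overlap.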
